A study of Homo sapiens with 4 samples.

Results

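The 52 genes described here lie in chromosome band 1p36, between about 0.9 and 22 Mb from the start of human chromosome 1 (GRCh38), and are members of 1 map segment rather than of 1 pathway. They were chosen by name from a region selected on its higher values in RES-B, so the RES-B values are given as a description and support nothing by themselves. The choice did not name RES-A or acutely treated cells. As higher is relative to other libraries, their values may still have entered it. All 52 symbols were found, each once, among the 33538 genes of the count matrices. In 50 of them the mean level over the libraries reached 10 CPM (UMI counts scaled to the same total in every library, where a UMI marks 1 captured RNA molecule), as it did for 7460 genes in all, and PHF13 and CASP9 stayed below that level.

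The libraries came from LNCaP, an androgen-sensitive human prostate cancer cell line. Parental cells received the solvent DMSO (0.1%) for 48 h (LNCaP) or 10 µM enzalutamide, an androgen receptor antagonist, for 48 h (LNCaP-ENZ48). The resistant line RES-A had been passaged in rising doses of enzalutamide and RES-B in the related antagonist RD-162, and both were then kept in 10 µM enzalutamide. Each group was 1 library of living cells sorted from 1 line, with no replicate, so no test between groups was possible, and the intervals below cover counting error only. The resistant lines differ from the parent in both their drug history and their later enzalutamide exposure, and the time since they were split from it cannot be told apart from the drug. No source used here says whether RES-A or RES-B is a single clone.

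Band 1p36 is among the most gene-dense stretches of the genome, and many of its genes serve functions that every cell needs, such as ribosome assembly, protein folding and secretion, ubiquitin transfer and mitochondrial upkeep. Neighbours on a chromosome can be read together for display in map order, as is often done with tumour expression data, although such libraries report RNA and not DNA. Copy number was not analysed here.

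The libraries held 1782 to 4569 cells after filtering and 50208831 to 60838227 UMIs. Their medians per cell differed, with 27079.5 UMIs in LNCaP and 12138 to 13676 in the others. The mitochondrial share of UMIs was highest in RES-B, with a median of 12.2% against 9.38% to 10.4% in the others, and its part in the results below was not tested. Between any 2 libraries, 2 to 12 cell barcodes were shared. All 6 luminal prostate markers were detected in every library, although KLK3, an androgen target, was down to 2 UMIs in RES-A, and the summed luminal markers ranged from 1166 to 1989 CPM. Basal, fibroblast, immune and endothelial markers summed to at most 3.33 CPM in any library, with KRT5, TP63, PTPRC, CD3E and CDH5 at 0 throughout.

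Some of these genes share a promoter region, so the values of both genes can be set beside 1 stretch of DNA. In 3 pairs the genes are read in opposite directions from starts less than 1000 bases apart. The RefSeq sequence around each shared start is given (GRCh38.p14, from 250 bases before to 50 bases after the start of the rightward gene, which is base 251, 5′ to 3′ on the plus strand), together with the promoters of SLC25A33 and MTOR. These were the only expressed members called lower in all 3 drug-exposed libraries, at the limit of 0.32 on the log2 scale that is defined below. Capitals mark every match, on either strand, to an E-box, an ETS motif, the NRF1 motif, a GC box, a TATA box, a CRE or an androgen response half-site, each spelled out with its share, and adjoining GC boxes can overlap.
B3GALT6 (chr1:1231987-1232286, the start of SDF4 at base 15): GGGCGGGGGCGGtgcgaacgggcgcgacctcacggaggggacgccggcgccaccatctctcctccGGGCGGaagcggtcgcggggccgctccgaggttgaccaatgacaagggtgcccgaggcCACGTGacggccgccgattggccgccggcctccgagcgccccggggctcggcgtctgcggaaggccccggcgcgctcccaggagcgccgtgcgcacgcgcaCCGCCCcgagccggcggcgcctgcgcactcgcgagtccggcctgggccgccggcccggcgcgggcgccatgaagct
CPTP (chr1:1324552-1324851, the start of INTS11 at base 109): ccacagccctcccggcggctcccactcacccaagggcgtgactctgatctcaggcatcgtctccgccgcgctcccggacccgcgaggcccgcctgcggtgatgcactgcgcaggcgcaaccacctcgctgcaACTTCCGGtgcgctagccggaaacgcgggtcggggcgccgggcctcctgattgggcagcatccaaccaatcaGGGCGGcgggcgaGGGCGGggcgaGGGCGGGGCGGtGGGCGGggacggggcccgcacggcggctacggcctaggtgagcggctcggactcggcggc
NMNAT1 (chr1:9943225-9943524, the start of LZIC at base 167): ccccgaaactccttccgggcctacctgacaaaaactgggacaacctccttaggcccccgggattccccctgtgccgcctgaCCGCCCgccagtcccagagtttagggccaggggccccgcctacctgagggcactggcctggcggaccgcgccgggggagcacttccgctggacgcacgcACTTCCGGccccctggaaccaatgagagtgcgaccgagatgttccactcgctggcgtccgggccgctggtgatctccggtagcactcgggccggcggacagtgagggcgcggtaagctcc
SLC25A33 (chr1:9539215-9539514, plus strand): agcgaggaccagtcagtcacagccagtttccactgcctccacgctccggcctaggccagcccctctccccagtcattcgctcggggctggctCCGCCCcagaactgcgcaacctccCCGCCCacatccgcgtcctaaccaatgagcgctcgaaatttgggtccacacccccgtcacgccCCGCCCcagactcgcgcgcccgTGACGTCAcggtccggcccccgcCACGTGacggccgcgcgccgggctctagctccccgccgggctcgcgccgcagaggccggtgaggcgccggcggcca
MTOR (chr1:11262502-11262801, minus strand): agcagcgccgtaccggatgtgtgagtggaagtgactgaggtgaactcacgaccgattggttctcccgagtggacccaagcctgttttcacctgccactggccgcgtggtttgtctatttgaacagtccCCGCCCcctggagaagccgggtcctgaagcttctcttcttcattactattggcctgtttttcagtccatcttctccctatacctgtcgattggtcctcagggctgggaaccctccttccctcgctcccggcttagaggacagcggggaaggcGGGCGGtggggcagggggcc

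RefSeq promoters were matched for 49 of the 52 genes (not for PUSL1, RERE and SKI). Some of these genes have several promoters. Over all promoters of these genes, the median GC content was 71.3%, against 58.7% over 35116 promoters of the same length. Their median count of CG dinucleotides was 35 against 14. The motif counts that follow use only the first listed promoter of each gene, beside all 35116 promoters. The GC box, GGGCGG, occurred in 37 of 49 (75.5%) against 45% of all promoters. The ETS motif, CCGGAAGT, occurred in 10 (20.4%) against 4.14%, among them both genes of the INTS11 and LZIC pairs. The E-box, CACGTG, occurred in 8 (16.3%) against 7.26%, among them SLC25A33 and both genes of the SDF4 pair. The windows of paired genes overlap, so a site in the shared stretch counts for both genes and raises these shares. The CRE, spelled TGACGTCA, occurred in DVL1, SLC25A33 and THAP3 (6.12%) against 1.85%, and the TATA box, TATAAA, in VPS13D alone (2.04%) against 11.5%. The letters of the NRF1 motif and of the androgen half-site, AGAACA, were found in none, against 1.24% and 14.8%. These matches describe letters in a 300-base window and not binding.

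To place each gene against the whole transcriptome, its log2 ratio of CPM between 2 libraries was expressed relative to the median over the 7460 expressed genes, which itself against LNCaP was 0.11 for RES-B, 0.02 for RES-A and -0.07 for LNCaP-ENZ48. A gene at least 0.32 above or below that median on the log2 scale is called higher or lower. In RES-B, 20 of the 50 expressed genes (40%) were called higher and 5 (10%) lower, beside 22.5% and 23.8% of all expressed genes, and the median of the 50 was 0.25. This contrast chose the region, so the counts only describe it. RES-B was the highest of the 4 libraries for 37 of the 50 (74%), beside 27.3% of all genes. Against RES-A instead of LNCaP, 21 were higher (background 21.3%) with a median of 0.27, and against LNCaP-ENZ48, 22 were higher (background 22.4%) with a median of 0.26. Taken as plain CPM ratios, without that reference, the 3 counts of higher genes became 27, 29 and 35, beside 30.5%, 27.8% and 38.7% of all expressed genes. With the 10 CPM minimum applied to the 3 libraries other than RES-B, a choice made after seeing the data, 49 of these genes remained (7359 of all genes, which set the reference median). Of the 49, 21 were higher and 5 lower in RES-B, beside 22.1% and 23.8% of the 7359.

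The values of the drug-exposed libraries that the choice did not name differed from this. In RES-A, 4 of the 50 genes (8%) were higher and 10 (20%) lower, beside 23.7% and 24.5% of all genes, with a median of 0.02. In LNCaP-ENZ48, 1 gene (2%) was higher and 4 (8%) lower, beside 7.08% and 8.35%, with a median of -0.04. Neither library therefore had a share of higher genes above the background. In all, the 52 genes took 0.364% of UMIs with solvent, 0.342% after 48 h of drug, 0.375% in RES-A and 0.469% in RES-B. Unlike the ratios, these shares are not centred on the median of all expressed genes.

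**Figure D1:**
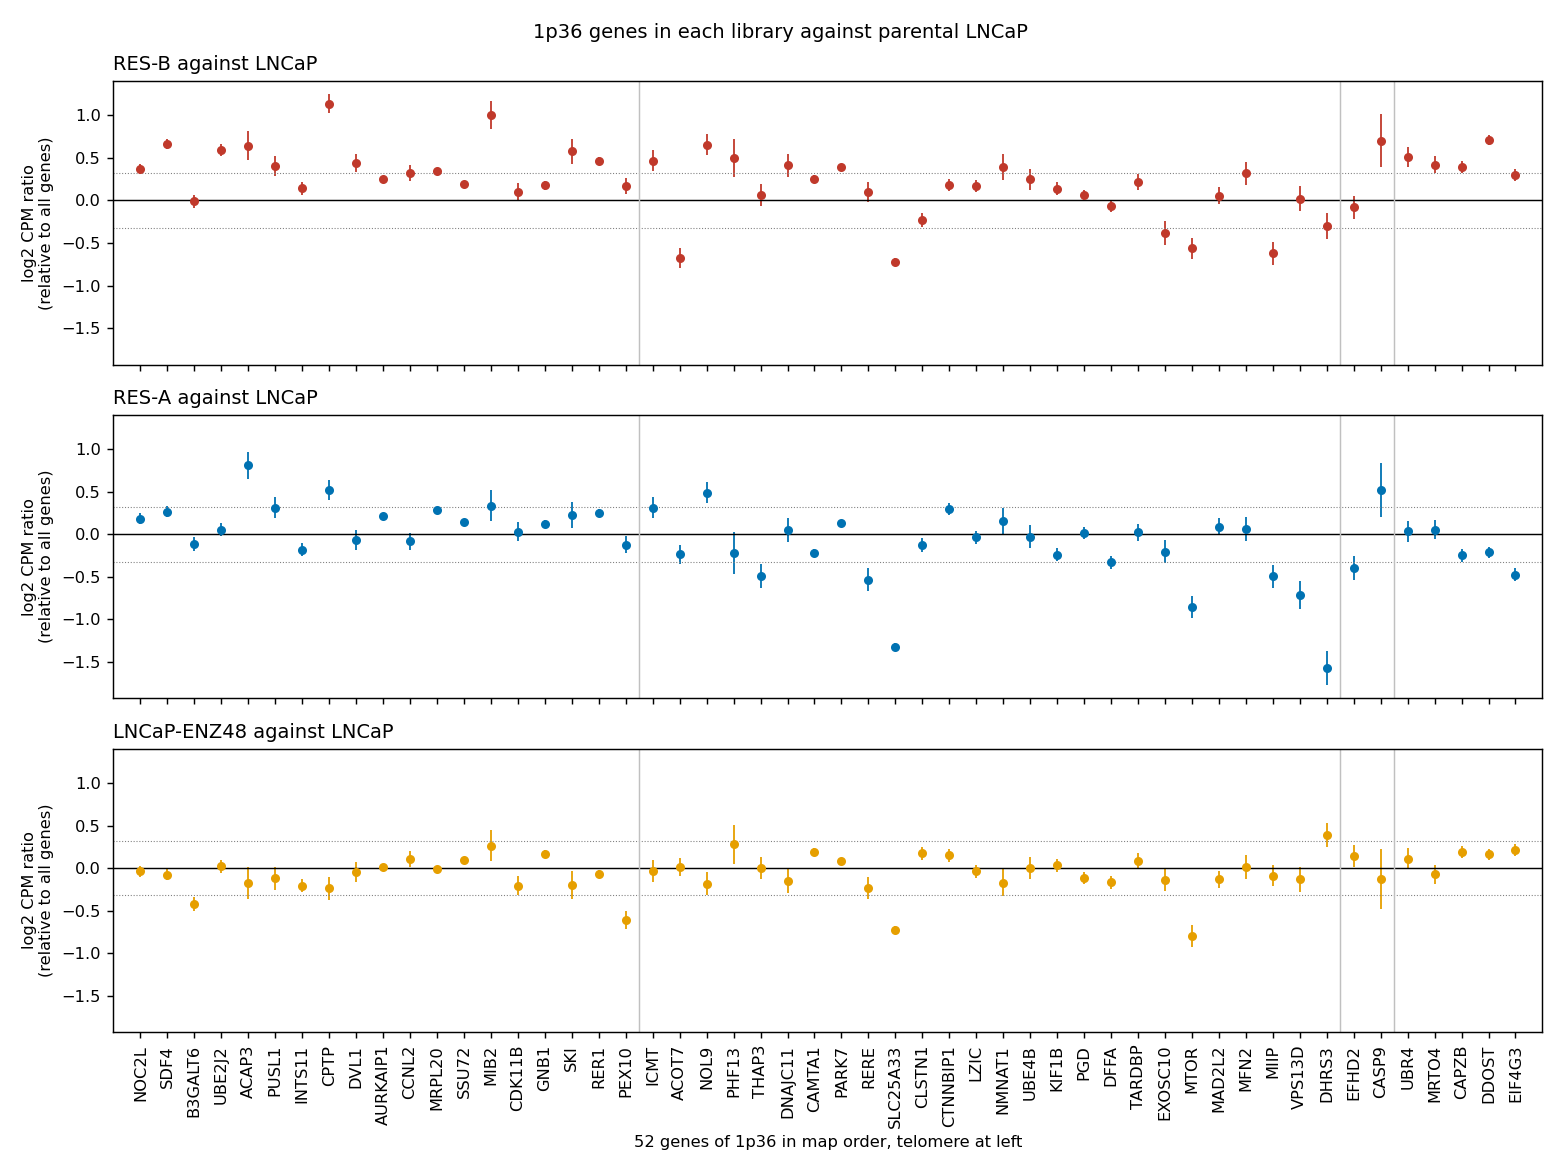
Log2 CPM ratio to LNCaP, relative to all expressed genes, of the 52 genes in map order in RES-B, RES-A and LNCaP-ENZ48. Points carry 95% counting intervals, dotted lines mark 0.32 above and below 0, and grey lines mark gaps of at least 2 Mb; in RES-B most points lie above 0, in LNCaP-ENZ48 most lie within the dotted lines.

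Levels are given in CPM for the solvent control (LNCaP), after 48 h of enzalutamide (LNCaP-ENZ48) and for both resistant lines. The background for the RES-B counts by group below is 22.5% of all expressed genes higher and 23.8% lower. Of the 8 members in ribosome assembly, translation and RNA modification, 5 were higher in RES-B and 1 lower (median 0.36). NOC2L, a nucleolar factor that also binds histones, stood at 73.9 CPM with solvent, 68.3 after 48 h, 85.2 in RES-A and 103 in RES-B. NOL9, a kinase that prepares ribosomal RNA ends, stood at 17.4 CPM with solvent, 14.6 after 48 h, 24.8 in RES-A and 29.6 in RES-B, and MRTO4, an assembly factor of the large subunit, at 25.5 CPM with solvent, 23.1 after 48 h, 26.9 in RES-A and 36.9 in RES-B. Among these 3 genes RES-B was the highest library each time, and NOL9 was also called higher in RES-A (0.49, 95% interval 0.37 to 0.61). The mitochondrial ribosomal protein genes MRPL20 (371 CPM with solvent, 349 after 48 h, 459 in RES-A and 509.9 in RES-B) and AURKAIP1 (424 CPM with solvent, 405 after 48 h, 498 in RES-A and 546 in RES-B) had nearly the same values in both resistant lines, with RES-B to RES-A differences of 0.06 and 0.04 on the log2 scale. PUSL1, a pseudouridine synthase-like gene, was at 0.41 in RES-B and 0.31 in RES-A. EIF4G3, a scaffold of the cap-binding complex, separated the resistant lines, with 57.9 CPM with solvent, 63.6 after 48 h, 42.3 in RES-A and 76.9 in RES-B. EXOSC10, a nuclease of the RNA exosome, went the other way from the group, with 17.7 CPM with solvent, 15.3 after 48 h, 15.5 in RES-A and 14.7 in RES-B, a RES-B ratio of -0.38 (-0.52 to -0.24).

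The secretory pathway and membrane group, with 5 of its 8 genes called higher in RES-B and none lower (median 0.47), held the largest ratio. CPTP, which transfers ceramide-1-phosphate between membranes, stood at 17.6 CPM with solvent, 14.2 after 48 h, 25.7 in RES-A and 42 in RES-B. It was called higher in both resistant lines, by 1.14 in RES-B (95% interval from 1.02) and 0.52 in RES-A (0.40 to 0.64), while it was lowest in LNCaP-ENZ48. INTS11, which starts within the same promoter window, differed from it, with 53.7 CPM with solvent, 44.2 after 48 h, 47.9 in RES-A and 64 in RES-B and a RES-B ratio of 0.14 (0.07 to 0.22). The intervals of the 2 genes do not overlap in RES-B or in RES-A, where INTS11 was at -0.18 (-0.26 to -0.11).

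DDOST, a subunit of the oligosaccharyltransferase that adds N-glycans in the endoplasmic reticulum, stood at 69 CPM with solvent, 73.3 after 48 h, 60.4 in RES-A and 122 in RES-B. Its RES-B ratio was 0.71 (0.65 to 0.77) and its RES-A ratio -0.21 (-0.28 to -0.14), so RES-B exceeded every other library and RES-A was the lowest. SDF4, a calcium-binding protein of the Golgi, stood at 67.9 CPM with solvent, 61.1 after 48 h, 82.6 in RES-A and 116 in RES-B, higher in RES-B than in any other library. B3GALT6, a glycosyltransferase for proteoglycan linkers that shares the SDF4 start region, stood at 48.8 CPM with solvent, 34.5 after 48 h, 45.6 in RES-A and 52.4 in RES-B. Its RES-B ratio of -0.01 (-0.09 to 0.07) lay below that of SDF4, 0.66 (0.60 to 0.73), and it was one of the 4 genes called lower in LNCaP-ENZ48 (-0.42).

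Among the other members of this group, RER1, which returns proteins from the Golgi to the endoplasmic reticulum, was called higher in RES-B (0.46), as was ICMT, which methylates prenylated proteins (0.47). In RES-A they were at 0.25 and 0.31, both short of the 0.32 limit. CLSTN1, a cargo adaptor for vesicle transport, was at -0.23 in RES-B. VPS13D, a lipid transfer protein, was at 0.02 in RES-B but -0.71 (-0.88 to -0.54) in RES-A, that is, 8.77 CPM compared with 14.2 with solvent.

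**Figure D2:**
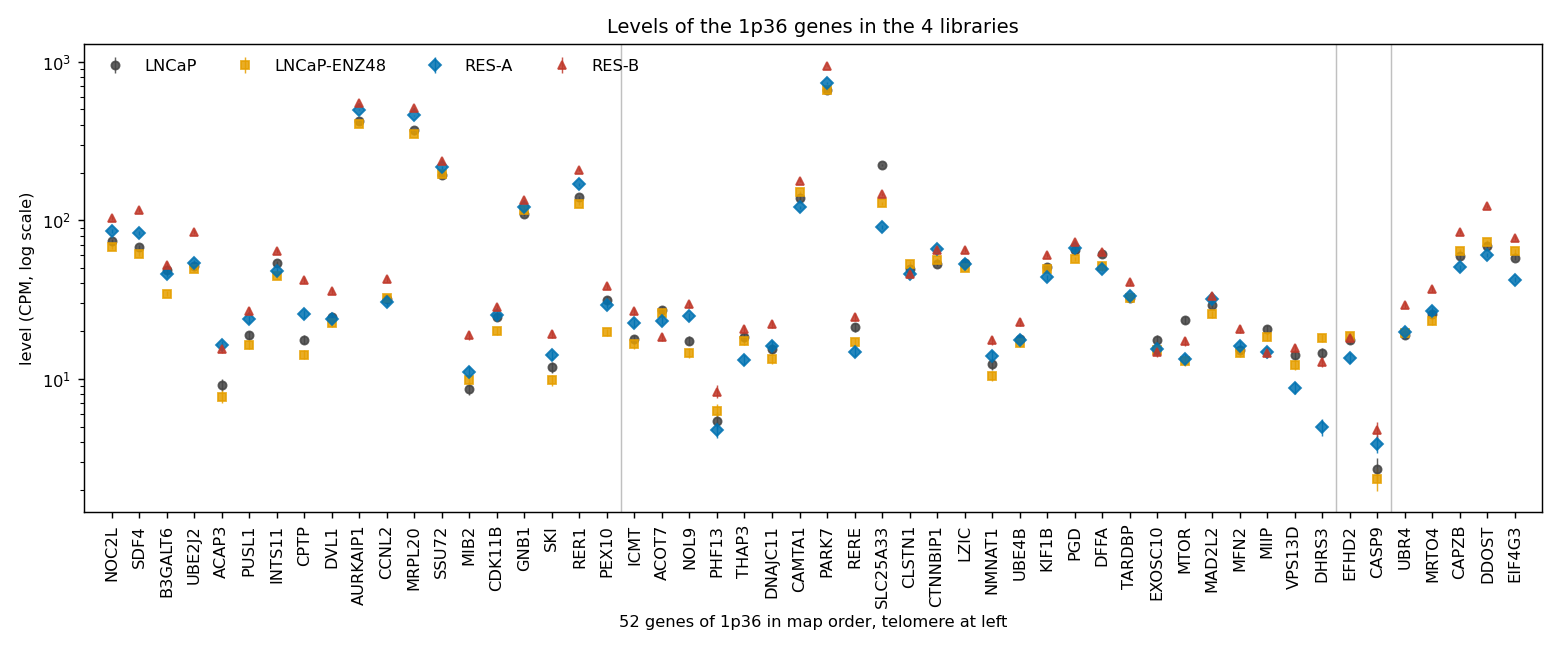
Levels of the 52 genes in CPM on a log scale, in map order, with 95% counting intervals; each symbol is 1 library. Relative to the median of all expressed genes, RES-B was the highest library for 37 of the 50 expressed genes. The CPM plotted here are not centred on that median, so the uppermost symbol can differ.

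Of the ubiquitin group, 3 of 4 were higher in RES-B. MIB2, a ligase acting on Notch ligands, stood at 8.66 CPM with solvent, 9.90 after 48 h, 11.1 in RES-A and 18.8 in RES-B, a RES-B ratio of 1.01 (0.84 to 1.17), second among members after CPTP, and was also called higher in RES-A (0.34). It was the only member to reach the 10 CPM minimum through RES-B alone, since the mean of the other 3 libraries was 9.88 CPM. UBE2J2, a conjugating enzyme of endoplasmic reticulum-associated degradation, stood at 51.5 CPM with solvent, 49.7 after 48 h, 54.1 in RES-A and 84 in RES-B, so that RES-B alone stood apart from the others. UBR4, a very large ligase that recognises destabilising protein ends, was also apart in RES-B alone, with 19 CPM with solvent, 19.5 after 48 h, 19.7 in RES-A and 29.2 in RES-B. UBE4B, a chain-elongating ligase, was at 0.25 in RES-B and within -0.16 to 0.10 in RES-A.

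Of the signalling genes, DVL1, the Dishevelled protein downstream of Wnt receptors, stood at 24.5 CPM with solvent, 22.6 after 48 h, 23.7 in RES-A and 36 in RES-B, and RES-B was called higher (0.44) with the other 3 libraries close together. CTNNBIP1, an inhibitor of β-catenin in the same pathway, reached 0.18 in RES-B and 0.29 in RES-A, so both lines were above the parent and neither was called higher. GNB1, a G protein β subunit, was at 0.17 after 48 h, 0.12 in RES-A and 0.18 in RES-B. ACAP3, a GTPase-activating protein for ARF6, was higher in both resistant lines, with 9.16 CPM with solvent, 7.73 after 48 h, 16.3 in RES-A and 15.5 in RES-B, and in RES-A it had the largest ratio of all members (0.81, 0.65 to 0.97).

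MTOR, the kinase that couples nutrient and growth factor supply to protein synthesis, was lower in every drug-exposed library. It stood at 23.7 CPM with solvent, 12.9 after 48 h, 13.3 in RES-A and 17.3 in RES-B, which gave ratios of -0.80 (-0.93 to -0.67) after 48 h of drug, -0.85 (-0.99 to -0.72) in RES-A and -0.56 (-0.69 to -0.44) in RES-B. The intervals of the 48 h library and of RES-A overlap, and RES-B lay closest to the solvent control. Of its 6 listed complex partners, 5 were expressed and none was called higher or lower in LNCaP-ENZ48. In RES-B, DEPTOR, an mTOR inhibitor, was at 1.68 and RICTOR, the scaffold of mTOR complex 2, at -0.52, and in RES-A they were at 1.03 and -0.67. Both lie near the 10 CPM limit, RICTOR with 12 CPM in LNCaP and 9.05 in RES-B, and DEPTOR with 6.25 and 21.7, so that DEPTOR reached it only through RES-B (mean of the other 3 libraries 8.22 CPM).

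Of the 10 members in transcription and RNA processing, 9 were expressed, of which 1 was called higher in RES-B (SKI) and none lower. SKI, a corepressor of SMAD proteins, stood at 11.9 CPM with solvent, 9.83 after 48 h, 14.1 in RES-A and 19.2 in RES-B, with a RES-B ratio of 0.58 (0.43 to 0.73). CCNL2, a cyclin of splicing kinases, fell just short of the limit with 0.32. SSU72, an RNA polymerase II phosphatase, was at 0.19, TARDBP, the RNA-binding protein TDP-43, at 0.22, and CDK11B, a splicing kinase, at 0.10. The neighbouring near copy CDK11A was at 0.29 in RES-B and 0.44 in RES-A, and as reads that fit both copies are not counted, the level of each is uncertain.

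A further 3 of these genes were lower in RES-A than in the others while RES-B was at or above the parental value. RERE, an atrophin-family corepressor, stood at 21.1 CPM with solvent, 17.1 after 48 h, 14.8 in RES-A and 24.5 in RES-B, THAP3, a zinc-finger protein, at 18.3 CPM with solvent, 17.4 after 48 h, 13.2 in RES-A and 20.7 in RES-B, and CAMTA1, a calmodulin-binding transcription activator, at 138 CPM with solvent, 150.3 after 48 h, 121 in RES-A and 178 in RES-B. RERE (-0.53) and THAP3 (-0.49) were called lower in RES-A, and CAMTA1 (-0.22) was not. PHF13, a reader of methylated histone H3, was below the level filter, at 5.46 CPM with solvent, 6.30 after 48 h, 4.76 in RES-A and 8.31 in RES-B, with a RES-B ratio of 0.49 (0.27 to 0.72).

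Among the 9 members in mitochondria, peroxisomes and metabolism, 3 were called higher in RES-B and 2 lower. PARK7, a redox-sensitive chaperone, stood at 663 CPM with solvent, 668 after 48 h, 735 in RES-A and 941 in RES-B, with a narrow RES-B interval of 0.37 to 0.41 around 0.39. DNAJC11, which helps shape mitochondrial cristae, was at 0.41 in RES-B and 0.05 in RES-A, and NMNAT1, the nuclear enzyme of NAD synthesis, at 0.39 and 0.15. NMNAT1 and LZIC, which start 84 bases apart in RefSeq, were at 0.39 (0.24 to 0.54) and 0.17 (0.10 to 0.24) in RES-B, so these intervals adjoin. MFN2, a mitofusin of the outer membrane, fell just short of the limit in RES-B with 0.32 after rounding, and PGD, an enzyme of the pentose phosphate pathway, was at 0.06.

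SLC25A33, a mitochondrial pyrimidine nucleotide carrier, was the member with the lowest RES-B ratio. It stood at 223 CPM with solvent, 128 after 48 h, 90.3 in RES-A and 146 in RES-B, so every drug-exposed library was below the solvent control, with RES-A the lowest. The ratios were -0.72 (-0.76 to -0.68) after 48 h of drug, -1.32 (-1.37 to -1.28) in RES-A and -0.72 (-0.76 to -0.68) in RES-B. LNCaP-ENZ48 and RES-B thus had nearly the same ratio. ACOT7, an acyl-CoA thioesterase, stood at 27.1 CPM with solvent, 25.9 after 48 h, 23.3 in RES-A and 18.4 in RES-B and was lower in RES-B (-0.68, -0.80 to -0.56), and was at 0.01 (-0.10 to 0.11) after 48 h.

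DHRS3, which reduces retinal to retinol, had the lowest RES-A ratio. It stood at 14.5 CPM with solvent, 18.1 after 48 h, 4.95 in RES-A and 12.7 in RES-B, a RES-A ratio of -1.57 (-1.78 to -1.37), and was the only expressed member called higher in LNCaP-ENZ48 (0.39, 0.25 to 0.53). Its short-term and long-term values in enzalutamide therefore had opposite signs in RES-A. PEX10, a peroxisome import factor, was called lower in LNCaP-ENZ48 (-0.61, -0.72 to -0.50) and stood at 31.5 CPM with solvent, 19.6 after 48 h, 29.4 in RES-A and 38.3 in RES-B, with both resistant lines near or above the parent. It overlaps RER1 by 1479 bases on the opposite strand, and as the strand setting of the counting was not given in the sources used here, their counts are uncertain, as are those of ACAP3, PUSL1 and INTS11 and of THAP3 and DNAJC11, which overlap in the same way. In all, 28 members overlap some annotated gene and 7 of these overlap another member. CAPZB overlaps a gene that is no member, with a mean of 116 CPM, by 1137 bases on the opposite strand. The same uncertainty therefore holds for its counts.

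In the cytoskeleton group, RES-B lay above RES-A for all 3 genes relative to the median of all genes, as it did for 43 of the 50 expressed members. CAPZB, the β subunit of actin capping protein, stood at 59.1 CPM with solvent, 64 after 48 h, 50.5 in RES-A and 83.9 in RES-B, higher in RES-B (0.39) and at -0.25 in RES-A. KIF1B, a kinesin motor, stood at 50.8 CPM with solvent, 49.4 after 48 h, 43.7 in RES-A and 60.5 in RES-B, and EFHD2, a calcium-binding actin regulator, at 17.6 CPM with solvent, 18.5 after 48 h, 13.6 in RES-A and 18 in RES-B. EFHD2 was called lower in RES-A (-0.40, -0.54 to -0.26) and was not called in RES-B (-0.08).

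None of the 3 expressed genes of apoptosis, mitosis and DNA repair was called higher in RES-B. MIIP, an inhibitor of cell migration, stood at 20.6 CPM with solvent, 18.3 after 48 h, 14.8 in RES-A and 14.5 in RES-B and was lower in both resistant lines (-0.49 and -0.62). DFFA, the inhibitor of the caspase-activated DNase, was called lower in RES-A (-0.33) and was at -0.06 in RES-B. MAD2L2, a component of translesion polymerase ζ and of shieldin, was at 0.09 and 0.06 in RES-A and RES-B. CASP9, the initiator caspase of the mitochondrial pathway, was below the level filter, with 2.69 CPM with solvent, 2.33 after 48 h, 3.91 in RES-A and 4.74 in RES-B and a wide RES-B interval of 0.40 to 1.02.

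In map order the genes form 4 blocks separated by gaps of at least 2 Mb, a limit set after seeing the map. The first block, of 19 genes from NOC2L to PEX10 (0.94 to 2.41 Mb), had a median ratio of 0.37 in RES-B and 0.18 in RES-A. Of its genes, 11 (57.9%) were called higher in RES-B and 3 (15.8%) in RES-A, beside 22.5% and 23.7% of all expressed genes. None was called lower in either, beside 23.8% and 24.5%. In the second, of 26 genes from ICMT to DHRS3 (6.22 to 12.6 Mb), 25 were expressed and the medians were 0.10 and -0.13. All 5 members called lower in RES-B lay there (20%, beside 23.8% of all genes), with 5 others called higher (20%, beside 22.5%). The last block, of 5 genes from UBR4 to EIF4G3 (19.1 to 21.2 Mb), had a median of 0.42 in RES-B and -0.21 in RES-A. In it, 4 of the 5 (80%) were higher in RES-B, beside 22.5% of all genes. EFHD2 and CASP9 lie apart near 15.4 Mb. The medians of LNCaP-ENZ48 in the 3 larger blocks were -0.07, -0.04 and 0.16.

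The window holds 61 other expressed genes that are no members. As the region was selected on RES-B, their RES-B values are part of that selection and are given as a description. Their median was 0.35 in RES-B, 0.07 in RES-A and 0.00 in LNCaP-ENZ48, so their RES-B median was above the 0.25 of the listed genes. The largest RES-B ratios among these genes were those of PLA2G2A, a secreted phospholipase (2.93 CPM in LNCaP and 129 in RES-B, 5.34 on the log2 scale), CAMK2N1, an inhibitor of calmodulin-dependent kinase II (62.5 and 681 CPM, 3.33), and VWA1, a matrix protein (20.4 and 67.5 CPM, 1.61). PLA2G2A, with 2 others of the 61 (SAMD11 and NECAP2), reached the 10 CPM minimum only through its RES-B level, the mean of the other 3 libraries being 7.87 CPM, and without those 3 genes CAMK2N1 had the largest ratio. The lowest were AL139246.5 (-2.40), HES4, a Notch-responsive repressor (-2.24), and SMIM1 (-0.81). CAMK2N1 was also at 1.89 in LNCaP-ENZ48 and -0.45 in RES-A.

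To determine whether the elevation ended with the band, running medians over 21 neighbouring expressed genes were followed along chromosome 1. In RES-B all 788 running medians were above 0, with the highest, 0.64, around SPRTN near the end of the long arm, and within the window they ran from 0.06 around MAD2L2 to 0.51 around AKR7A2. In RES-A 358 of 788 (45.4%) were above 0, with the lowest of the chromosome, -0.37, around MFN2 inside the window, and 0.29 around ATAD3A toward the telomere. In LNCaP-ENZ48 387 (49.1%) were above 0, and all lay between -0.15 and 0.16.

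**Figure D3:**
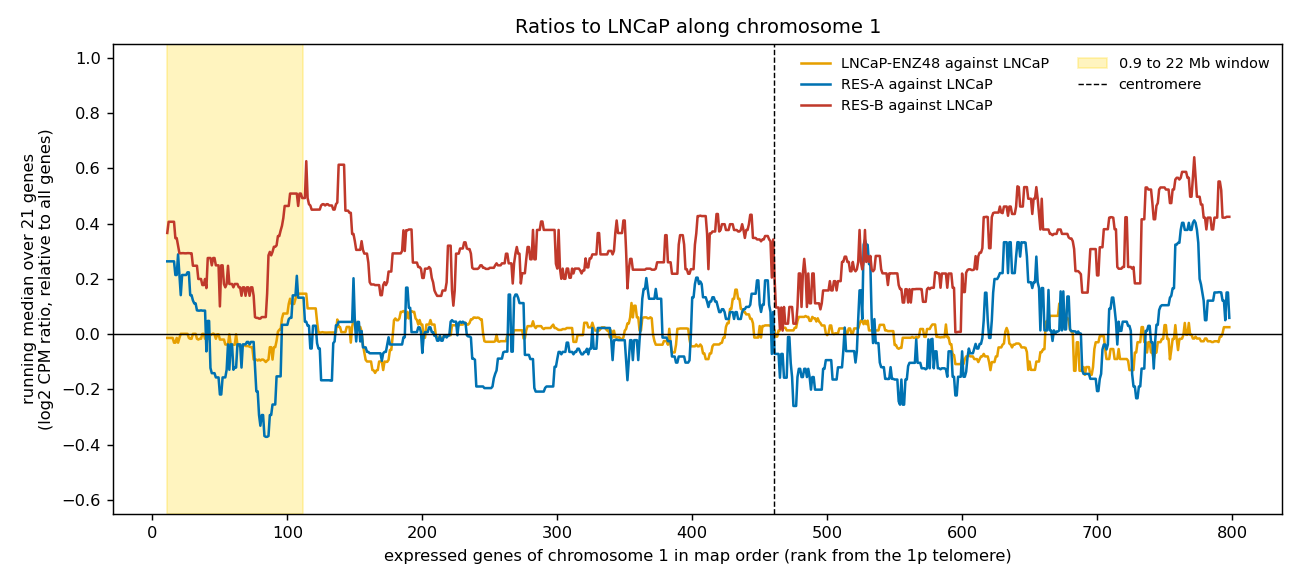
Running median over 21 genes of the log2 CPM ratio to LNCaP, relative to all expressed genes, against the rank of the gene along chromosome 1. The RES-B line stays above 0 over the whole chromosome, RES-A crosses 0 many times and dips to -0.37 inside the shaded window, and LNCaP-ENZ48 stays within 0.16 of 0.

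The RES-B elevation extended over the rest of the chromosome. Expressed genes of 1p outside the window (349) had a median of 0.31 in RES-B and -0.01 in RES-A, and those of 1q (348) had 0.31 and 0.01. Of these, 48.4% and 47.7% were called higher in RES-B, against 50.8% of the other genes of the window and 40% of the members. Among 41 chromosome arms with at least 20 expressed genes, the RES-B medians of 1q and 1p ranked 3 and 4, behind 21q (0.35) and 6p (0.34), with 6q (0.29) next. The lowest arms were 8p (-0.87), 22q (-0.43) and 11p (-0.40). In RES-A 21q (0.44) and 6q (0.32) were also high, whereas 6p (0.03), 1p (-0.01) and 1q were not. No arm medians were tested, since each rests on 1 library per group.

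**Figure D4:**
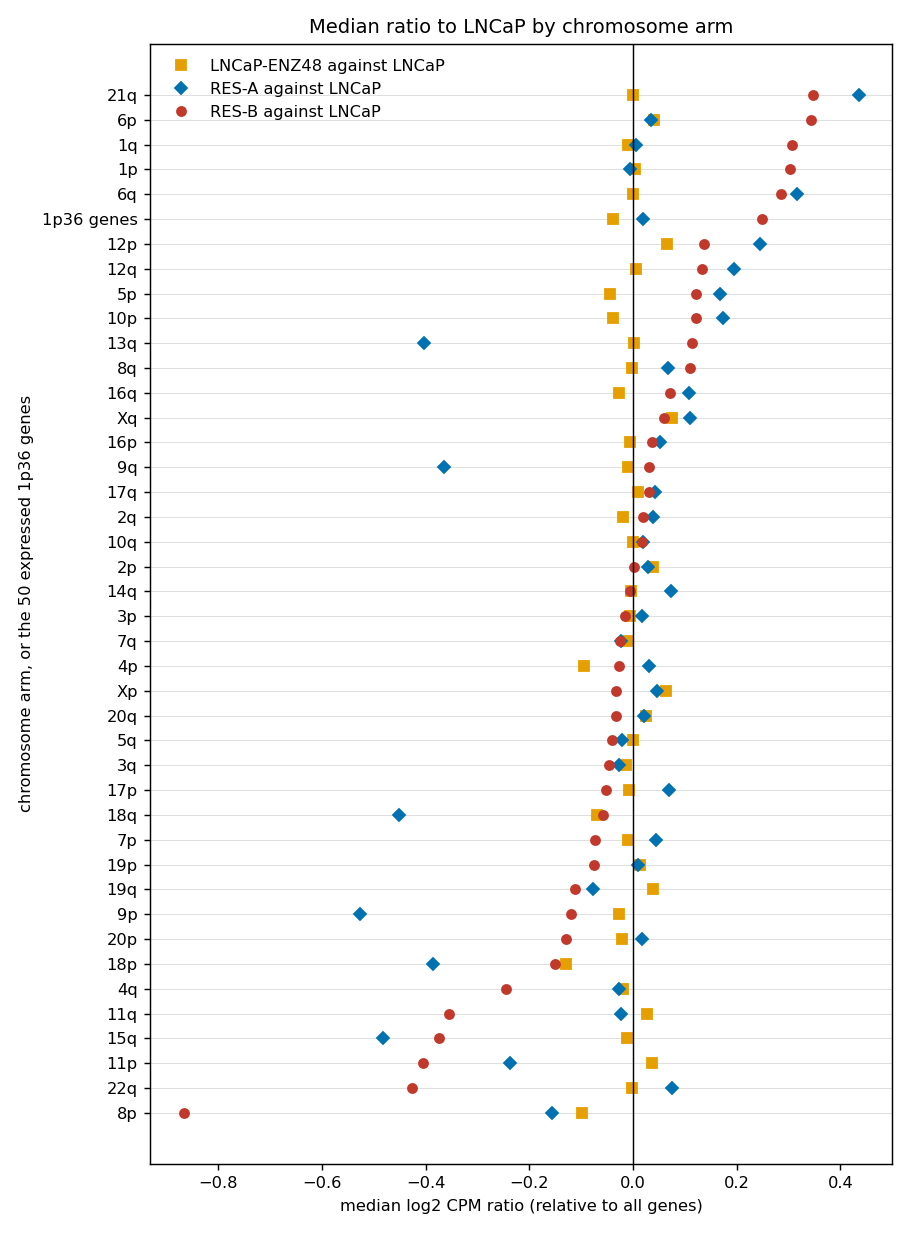
Median log2 CPM ratio to LNCaP, relative to all expressed genes, for each chromosome arm and for the 50 expressed 1p36 genes, ordered by RES-B. The 1p36 genes lie at 0.25 in RES-B, below 1p and 1q; the LNCaP-ENZ48 points lie between -0.13 and 0.08.

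Products of several members work in complexes with proteins encoded elsewhere, and the genes of those partners were taken from lists by name. Of 51 expressed partners outside chromosome 1, 6 were higher and 13 lower in RES-B (11.8% and 25.5%, backgrounds 22.5% and 23.8%), with a median of -0.05, and 12 were higher and 9 lower in RES-A. The oligosaccharyltransferase partners of DDOST had a median of 0.22 in RES-B, with MAGT1 (1.03), RPN1 (0.52) and RPN2 (0.46) higher and TUSC3 (-1.02) and TMEM258 (-0.68) lower. TUSC3 lies on chromosome 8 and MAGT1, its alternative in the same position of the complex, on the X chromosome. The RNA exosome partners of EXOSC10 had a median of -0.14, with 1 higher and 5 lower of 11, the Integrator partners of INTS11 -0.11 (0 higher and 2 lower of 10), and the pentose phosphate partners of PGD -0.15 (0 and 1 of 6). Partners of MFN2 in mitochondrial fusion and fission had medians of 0.06 after 48 h, 0.05 in RES-A and -0.02 in RES-B, with 1 of 6, MIEF1, lower in RES-B (-0.33). For CAPZB, the α subunit genes CAPZA1 and CAPZA2 were at 0.14 and 0.17 in RES-B, and for GNB1, 3 of the 5 expressed β and γ subunit genes were higher (GNG12, GNG5 and GNB2) and GNB5 was lower (-0.92). CAPZA1, GNG12 and GNG5 themselves lie on chromosome 1, so GNB2 was the only higher one of these subunit genes on another chromosome.

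By the correlation of log2 levels with the mean profile of the members over the 4 libraries, the most similar genes outside the window were DARS, HSPA9, KPNA6, MRPS26 and ZNF644 (chromosomes 2, 5, 1, 20 and 1), out of 1894 candidates. Their Pearson r values were 0.997 to 0.999, over only 4 points. DARS, the aspartyl-tRNA synthetase, stood at 87.5 CPM with solvent, 79.9 after 48 h, 85 in RES-A and 112 in RES-B.

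Whether the RES-B elevation lay in a few cells or in most was read from single cells, each thinned at random to 5000 UMIs. The median cell held 18 UMIs of the 52 genes with solvent, 17 after 48 h of drug, 18 in RES-A and 23 in RES-B. These counts, and the shares by phase below, are not centred on the median of all expressed genes. That median was itself 0.11 above LNCaP in RES-B on the log2 scale, and its part in these values was not tested. From the 10th to the 90th percentile, cells held 12 to 24 in LNCaP and 16 to 31 in RES-B, and 78.7% of RES-B cells exceeded the LNCaP median against 47.1% of LNCaP cells themselves. The variance over the mean was 1.16 with solvent, 1.17 after 48 h of drug, 1.22 in RES-A and 1.41 in RES-B, where pure sampling gives a value near 1. The 3 most abundant members, PARK7, AURKAIP1 and MRPL20, held 42.6% of the members' UMIs in RES-B and 51.2% of the rise in their summed CPM over LNCaP, so the sum per cell weighs these genes most. Without them, a choice made after seeing the data, the median cell held 11 UMIs of the other 49 genes with solvent, 10 after 48 h of drug, 10 in RES-A and 13 in RES-B, and 66.2% of RES-B cells exceeded the LNCaP median against 41% of LNCaP cells. By cell cycle phase, the share of UMIs in RES-B was 0.460% in cells called G1, 0.459% in S and 0.477% in G2/M, each above the corresponding 0.360%, 0.387% and 0.371% of LNCaP.

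**Figure D5:**
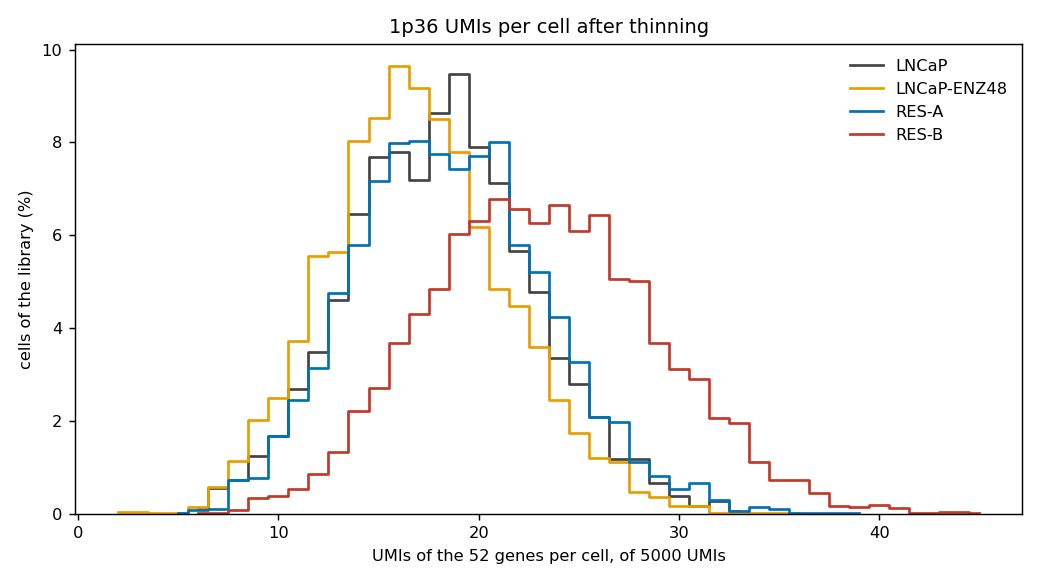
Share of cells (%) of each library against the number of UMIs of the 52 genes per cell after thinning to 5000 UMIs. The RES-B curve lies to the right of the other 3 as 1 peak, with a median of 23 UMIs against 17 or 18.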

How the data were processed

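Single-cell RNA sequencing of sorted living cells was performed by the authors on 4 libraries with droplet-based 3′ chemistry. The deposited values are UMI counts per gene and barcode, made by the authors in Cell Ranger 3.0.2 on a prebuilt GRCh38 reference; this software drops reads that fit several genes. Cells were filtered with the limits that the study set per library (LNCaP: 3000 to 7000 genes, 16000 to 50000 UMIs; others: 1500 to 5000 genes, 5000 to 25000 UMIs; mitochondrial share under 15%, 15%, 17% and 20%), which kept 1782, 4315, 4569 and 4061 of 2358, 4812, 5156 and 4907 barcodes. Doublets were not removed.

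Counts were summed per library in Python 3.11.15 (numpy 2.4.6, pandas 2.3.3, scipy 1.17.1) and scaled to CPM. Levels carry exact Poisson and ratios exact conditional binomial 95% intervals, and the interval code was tested on simulated data. Phases were called with scanpy 1.11.5 from 42 S and 52 G2/M genes. Coordinates came from GENCODE 44, in which 33113 of 33538 gene IDs were found, and promoters from RefSeq (GRCh38.p14).

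All members could be named in the text; of other genes, the 3 highest and 3 lowest of the window in RES-B with at least 10 CPM, the partner lists, CDK11A, and the 5 most similar genes with at least 50 CPM and a log2 range of at least 0.3. Genes and arms that mark a running median or an extreme were named after their values were seen. The members and lists were chosen with earlier results of these data known. Alternatives used other cell filters, thinning, single phases, edgeR 4.0.16 TMM and DESeq2 1.42.0 size factors, other level filters and a 1.5-fold limit.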

Additional observations from a re-analysis of the deposited data

Results flagged for a closer look

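For 7 members both resistant lines moved away from LNCaP in opposite directions, RES-B above and RES-A below the median of all genes, with counting intervals that exclude that median in both lines. The log2 difference of RES-B from RES-A was 0.93 for DDOST, 0.77 for EIF4G3, 0.64 for CAPZB, 0.47 for CAMTA1, 0.38 for KIF1B, 0.33 for INTS11 and 0.29 for PEX10. With 1 library per line the difference was not tested, and RES-B was part of the choice of the region. The share of all genes that meet the same rule is not given here, so the count of 7 cannot be read against a background. DDOST, EIF4G3 and CAPZB lie in the last of the 4 map blocks, which holds 5 members.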

How the results depend on the processing

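Of 277 values recomputed under alternatives for 27 summary results, 243 stayed the same in direction and size, 34 moved and none reversed. Over 13 alternatives the median of the members ranged from 0.23 to 0.36 in RES-B against LNCaP, from -0.06 to 0.04 in RES-A and from -0.11 to 0.00 in LNCaP-ENZ48. Without centring on the median of all genes, the median of the members in RES-B was 0.36 against LNCaP and 0.46 against LNCaP-ENZ48, that of the other window genes 0.47 and 0.51, and the counts became 0 members higher in LNCaP-ENZ48 and 35 higher in RES-B against LNCaP-ENZ48. With a minimum mean of 50 CPM, fewer genes are counted: 0 higher and 1 lower in LNCaP-ENZ48, 0 and 3 in RES-A, 8 and 1 in RES-B, 11 and 0 in RES-B against RES-A, and 8 and 0 in RES-B against LNCaP-ENZ48, where the other window genes had a median of 0.51. With a 1.5-fold limit the counts were 0 higher in LNCaP-ENZ48, 1 and 4 in RES-A, 7 and 3 in RES-B, 9 and 0 in RES-B against RES-A, and 7 and 2 in RES-B against LNCaP-ENZ48, beside 1.38% of all genes higher in LNCaP-ENZ48, 10.7% and 12.1% in RES-A, 10.2% and 11.4% in RES-B, 9.18% and 7.91% against RES-A, and 10.2% and 11.6% against LNCaP-ENZ48. In cells called S alone (89 in LNCaP), an alternative chosen after seeing the data, 3 members were higher and 9 lower in LNCaP-ENZ48, and the other window genes had a median of 0.46 in RES-B against LNCaP-ENZ48. In cells called G2/M alone, also chosen after seeing the data, 0 members were higher in LNCaP-ENZ48, 10 higher in RES-A and 0 lower when RES-B was set against RES-A. No share of all genes is given beside the counts at 50 CPM, in S cells or in G2/M cells. Those counts can therefore not be read against a background. Over 51 genes, 40.2% of running medians were above 0 in RES-A. At 2000 UMIs per cell the members took 0.468% of UMIs in RES-B, against 0.463% at 5000.

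Of 1560 single-gene values, 1252 stayed within their counting interval, 305 moved and 3 reversed. Those that reversed were CPTP in RES-A (-0.21) and EXOSC10 in RES-B (0.062) in S cells, and EFHD2 in RES-A (0.087) in G2/M cells. The LNCaP library held 89 cells called S and 346 called G2/M. The cause of these moves was not tested. No paired analysis was possible because each group is 1 library. With no replicate, library and group cannot be told apart, and leaving out a library was not possible.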
